A study of Mus musculus with 24 samples.

Results

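The mitochondrial ribosomal protein genes are the nuclear genes whose products are imported into mitochondria and assembled into the mitochondrial ribosome. They were taken by name, as all genes of the deposited tables called Mrpl or Mrps followed by a number and at most 1 letter, without pseudogenes. This gave 78 of 41710 genes, 49 with a large subunit name (Mrpl) and 29 with a small subunit name (Mrps). The study asked what loss of the transcription factor Myc, of Mlx, or of both does to mouse embryonic fibroblasts (MEFs), fibroblasts that grow out of minced embryos, and for this RNA was sequenced from 4 genotypes of primary MEFs and 4 genotypes of immortalized MEFs with 3 libraries each. The lines came from embryos of embryonic day 14 to 16, with the cells of at least 6 embryos pooled, so that no library stands for a single animal.

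All lines, the controls included, carried floxed alleles of Myc, Mlx or both and 2 copies of a Cre recombinase fused to the estrogen receptor (CreER) under the ROSA26 promoter, which is active in nearly all cell types. MycKO, MlxKO and double-knockout (DKO) cells were made by excision in culture in 500 nM 4-hydroxytamoxifen (4OHT), for at least 7 days in primary and 10 days in immortalized cells, after which the primary knockout cells were kept in 250 nM 4OHT and then at least 3 days without it. WT cells had intact loci, had received ethanol as vehicle and had not been excised. Genotype, exposure to 4OHT and the pool of embryos therefore cannot be told apart. The immortalized lines had in addition been transduced with a lentivirus encoding SV40 T-antigen and blasticidin resistance and selected before excision. Nothing in the labels ties the 3 libraries of a group to separate pools, so the p-values below measure the spread between libraries, which may be technical.

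Mitochondrial ribosomes translate the few proteins that the mitochondrial genome encodes, all of them core subunits of the respiratory chain and of ATP synthase. Their RNA is made in the organelle, and all of their proteins are encoded in the nucleus. The large subunit joins amino acids and holds the exit tunnel, and the small subunit binds and decodes the messenger RNA. Myc, with its partner Max, binds E-box sequences (CACGTG and variants) and is known as an activator of ribosome and mitochondrial biogenesis, and Mlx is the shared partner of MondoA and ChREBP, glucose-responsive factors that bind related sites.

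The libraries held 15986856 to 20966163 reads on genes, and 3 reads corresponded to between 0.145 and 0.196 CPM (reads on a gene scaled to a common library size), a floor that covers counting error only. Every member lay far above it, with 5.63 CPM as the lowest value of a member in a primary and 5.68 CPM in an immortalized library. Myc was at 89.8 to 100.1 CPM in primary WT libraries and fell to between 25.8 and 26.8 CPM in MycKO and between 19.9 and 22.9 CPM in DKO libraries. In immortalized libraries it was at 39.9 to 177 CPM in WT, 9.96 to 17.2 CPM in MycKO and 4.25 to 8.02 CPM in DKO cells. Mlx was at 20.5 to 26.02 CPM in primary WT, 13.01 to 13.97 CPM in MlxKO and 9.73 to 11.99 CPM in DKO libraries, and at 20.5 to 25.1 CPM in immortalized WT and 12.1 to 17.03 CPM in MlxKO libraries. Immortalized DKO libraries had 14.5 to 18.04 CPM of Mlx, a difference from WT that did not pass the test (limma adjusted p = 0.0694). The paper reports excision by quantitative PCR and loss of the proteins by immunoblotting, in primary and in immortalized cells. In its scheme the loxP sites flank certain exons, while gene totals count reads of all exons. Which exons the remaining reads came from was not tested. The summed level of 10 fibroblast markers, collagen genes among them, was between 18011 and 58686 CPM in all libraries. In 2 libraries the members stood apart from the other libraries of the group, and a further library stood apart over all genes. The median member in immortalized MycKO library 9 (libraries are named by the numbers in the deposited column names) lay 0.56 log2 units above the mean of the other 2 MycKO libraries, with 75 of 78 members above it, and in primary MycKO library 10 it lay 0.24 below, with 15 of 78 above. Over all genes, immortalized WT library 4 deviated from the other WT libraries with an SD of 0.73 log2 units and held 177 CPM of Myc, while its median member lay 0.14 above, with 48 of 78 above. Results are given with and without these libraries where a count moved.

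**Figure D1:**
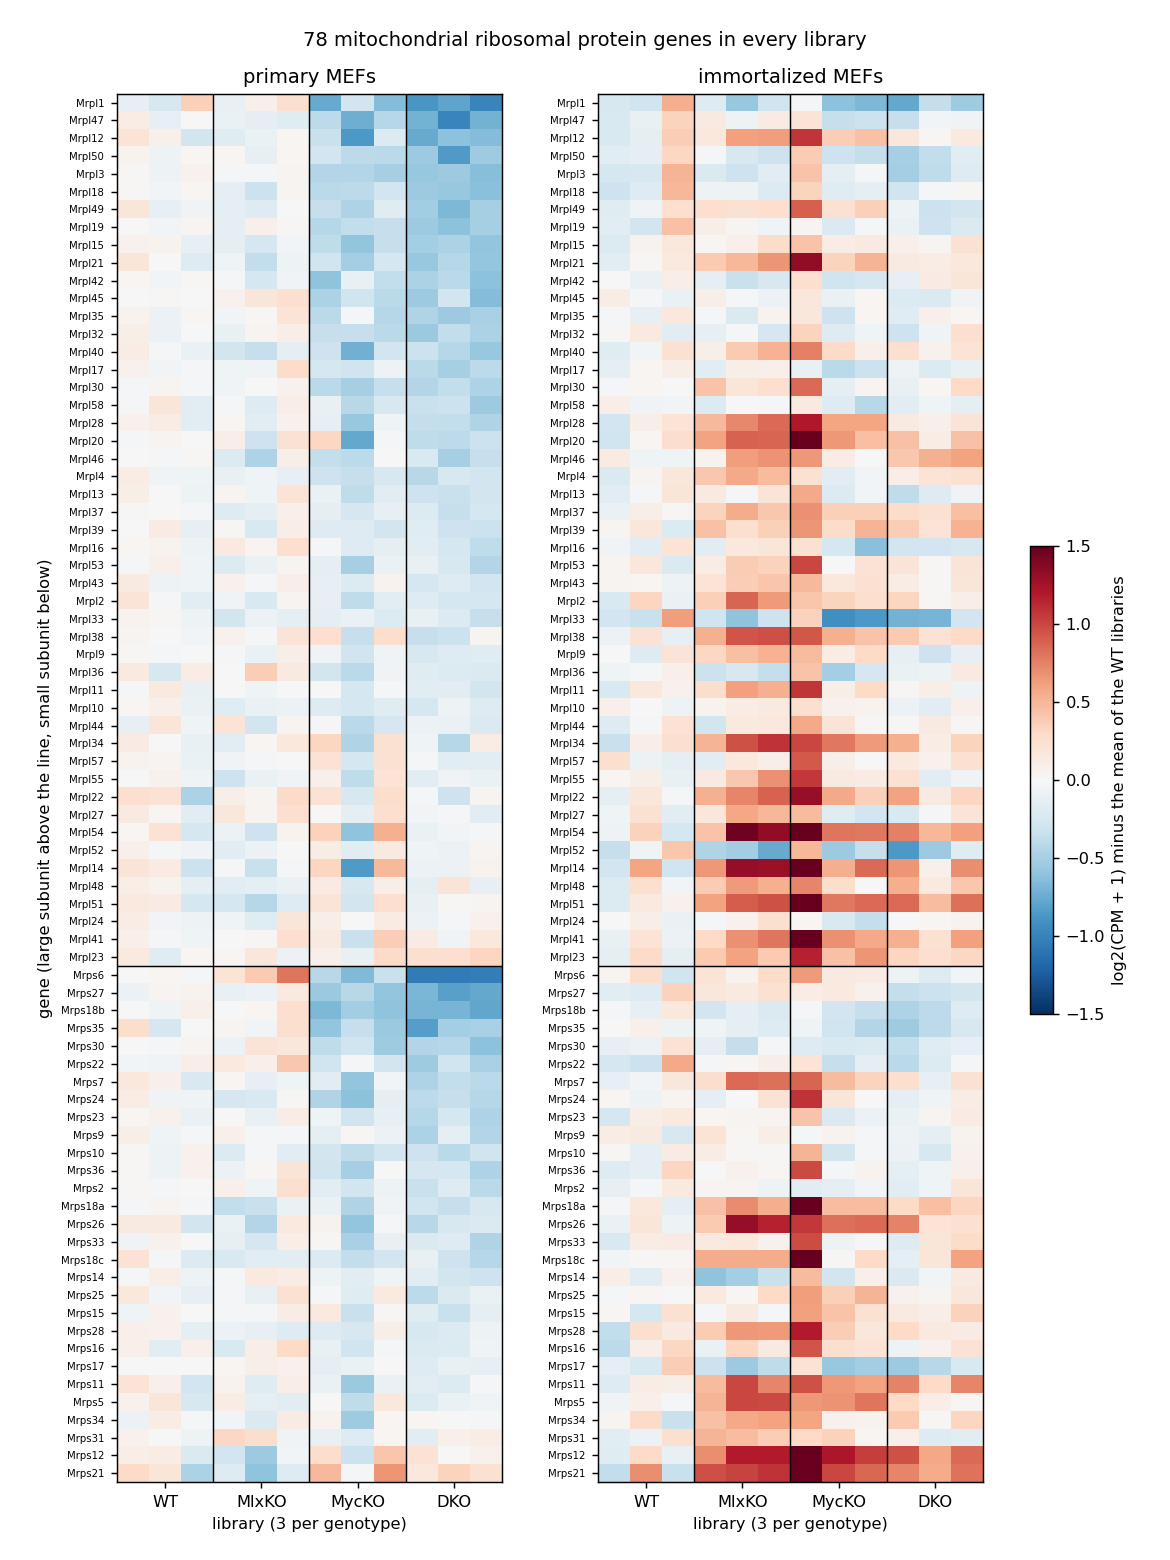
Each column is a library, 3 per genotype, and each line of the map is a mitochondrial ribosomal protein gene, with the large subunit above the black line and the small subunit below it, ordered by the fold change in primary DKO cells. Colour is log2(CPM + 1) minus the mean of the 3 WT libraries of the same table, and the scale ends at 1.5 in both directions. In primary cells the MycKO and DKO libraries are mostly blue (lower), and in immortalized cells a subset of genes is red (higher) in MlxKO and MycKO libraries, most of all in the first MycKO library (library 9).

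Levels of the members in WT cells differed widely. In primary cells the mean ran from 9.40 CPM for Mrps31 to 57.9 CPM for Mrpl17, and in immortalized cells from 7.17 CPM for Mrpl41 to 84.8 CPM for Mrpl3, a protein of the large subunit core close to the peptidyl transferase centre. Per kilobase of the canonical transcript (555 to 7366 bases), the scale on which genes can be set against each other, the highest member was Mrpl33, homolog of bacterial L33, with 62.1 CPM per kb in primary and 79.8 in immortalized WT cells. The lowest was Mrpl55, a protein found only in mitochondrial ribosomes, with 3.01 and 2.08 CPM per kb. The median member had 13.5 CPM per kb in primary and 13.4 in immortalized WT cells. By subunit the primary medians were 14.0 for the large and 12.2 for the small subunit. Canonical transcripts of the members were short, with a median of 1812 bases against 3491 bases over all genes tested in primary cells.

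The stretches of genome before these genes were examined for known sites of transcription factors, from 250 bases before to 50 bases after the annotated start, in GRCm39 with GENCODE vM39. The canonical E-box CACGTG, which reads the same on both strands, lay in 5 of 78 windows (6.41%) and in 7.81% of the windows of 21770 protein-coding genes. The core of an ETS factor site, CCGGAAG on either strand, lay in 24 windows (30.8%) against 10.3% of all windows, and in 17.9% against 6.89% when only the bases before the start were counted. The YY1 site AAGATGGCG lay in 4 windows (5.13%) against 1.34% of all windows, the palindromic NRF1 site in 1 (1.28%) against 1.16%, and a ChREBP type element of a pair of CACGTG with 5 bases between them in none of the members' and in none of all windows. None of these motifs holds another whole, apart from that element with its pair of E-boxes. Some share letters at their ends: the ETS core ends in AAG, with which the YY1 site begins, so a single stretch can count for both. The window of Mrps18a held a match of each. The windows of all protein-coding genes include those of genes too low to be tested in these cells, while all 78 members were tested. Shares among the tested genes alone are not given. A match describes the letters of the window and not the binding of a factor, and the absence of a match says nothing about binding elsewhere. Positions are those of the first base of the motif. The E-boxes of the members are printed because the knockouts remove Myc or the partner of MondoA and ChREBP, each on the strand of the gene, 5′ to 3′, with the E-box in capitals.
Mrpl2, chr17:46957004-46957033, plus strand, 101 bases before the start: actgccgcccgtCACGTGacccgagcaacc
Mrpl36, chr13:73479073-73479102, plus strand, 17 bases before the start: cacacgtcatccCACGTGaccttacgccat
Mrpl41, chr2:24866057-24866086, minus strand, 168 bases before the start: gtaaacagccctCACGTGgtctaaggggaa
Mrpl41, chr2:24865970-24865999, minus strand, 81 bases before the start: ggatcaagcggcCACGTGgggacggccgtc
Mrpl54, chr10:81102732-81102761, minus strand, at base 20 of the transcript: cacggaagtctgCACGTGcgagcggccggc
Mrps18c, chr5:100946450-100946479, plus strand, 31 bases before the start: gcagccccgggtCACGTGacttccggcccg

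ETS matches of members that the results below turn on are shown in the same way, with the motif (or CTTCCGG, its reverse complement) in capitals. Mrpl3 and Mrps27 were among the genes lower in primary MycKO cells, and Mrpl51, Mrps12, Mrps21 and Mrps26 among those higher in immortalized cells.
Mrps27, chr13:99480923-99480952, plus strand, 163 bases before the start: gggttcacagtCCGGAAGcaaaccgggctg
Mrpl3, chr9:104930437-104930466, plus strand, at base 11 of the transcript: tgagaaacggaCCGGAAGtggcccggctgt
Mrpl51, chr6:125169062-125169091, plus strand, 51 bases before the start: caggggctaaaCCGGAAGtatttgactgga
Mrps12, chr7:28441227-28441256, minus strand, at base 24 of the transcript: aaggaggaaccCCGGAAGgggctggaggta
Mrps21, chr3:95778790-95778819, minus strand, at base 24 of the transcript: cgtagcttccgCTTCCGGtccgcagagacc
Mrps26, chr2:130405652-130405681, plus strand, at base 6 of the transcript: ctccgcggccaCTTCCGGgccgggcgcagg

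Many of these genes were lower in primary MEFs that had lost Myc. Of the 78 members, 25 (32.1%) were lower and 0 higher in MycKO than in WT cells, with limma on log2(CPM + 1) at an adjusted p under 0.05, where 21.9% of all 13101 genes tested were lower and 20.4% higher. The median log2 fold change of the members was -0.21, against 0.00 over all genes. Of the members, 32 had 3 MycKO libraries below all 3 WT libraries and 0 had the reverse, where 24.6% and 23.4% of all genes did so. For a single gene an exact permutation of 3 against 3 libraries cannot give a 2-sided p below 0.10. In bulk RNA, fewer cells of a type and less RNA per cell cannot be told apart.

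The largest falls were of Mrps18b, Mrpl1 and Mrps27. Mrps18b, 1 of 3 homologs of the bacterial small subunit protein S18, lies on chromosome 17 from 36221266 to 36227606 (minus strand) and had 47.8, 45.8 and 50.9 CPM in WT and 29.9, 33.3 and 31.3 CPM in MycKO libraries, a log2 fold change of -0.60 ± 0.08 (SE, adjusted p = 1.80e-05). All of its MycKO libraries were below all WT libraries. Of its 50-base stretches 25.7% also occur in the pseudogene Gm13552 on the same strand. Counting either strand, 62.4% occur in transcripts of other genes, 45.6% in those of the long noncoding RNA Gm16279. Genes of the opposite strand overlap 38.4% of its exon length, and whether the counting used strand is not given in the sources used here. Mrpl1, homolog of the protein of the L1 stalk, through which spent transfer RNA leaves the ribosome, lies on chromosome 5 from 96357146 to 96414586 (plus strand) and had 15.8, 14.4 and 22.3 CPM in WT and 9.76, 13.9 and 10.6 CPM in MycKO libraries, a log2 fold change of -0.57 ± 0.15 (SE, adjusted p = 0.00693). The groups did not overlap, though the highest MycKO library was close to the lowest WT library. Mrps27, a pentatricopeptide repeat protein that is found in the mitochondrial and not in the bacterial small subunit, lies on chromosome 13 from 99480757 to 99552086 (plus strand) and had 24.9, 27.4 and 27.7 against 17.9, 19.7 and 17.4 CPM, a log2 fold change of -0.52 ± 0.09 (SE, adjusted p = 2.45e-04). Its groups were well apart.

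Other members with a place of their own in the particle moved as well. Mrpl3 had 58.4, 54.96 and 60.4 CPM in WT and 42.5, 42.4 and 40.6 CPM in MycKO libraries, a log2 fold change of -0.46 ± 0.07 (SE, adjusted p = 3.23e-05), with a narrow spread in both groups. Mrpl12, the protein of the stalk that recruits translation factors, had 49.8, 45.4 and 35.5 against 33.98, 23.3 and 37.3 CPM, a log2 fold change of -0.47 ± 0.14 (SE, adjusted p = 0.0142). Its groups overlapped, and the call was lost without WT library 1, WT library 2 or MycKO library 10. The remaining 20 members called were lower by 0.21 (Mrpl10) to 0.52 (Mrpl47) on the log2 scale. The genes not called in MycKO cells included Mrps12, homolog of the S12 protein of the decoding centre, with 16.8, 17.00 and 13.3 CPM in WT and 18.96, 12.3 and 21.2 in MycKO libraries, and Mrpl14, of the face between the subunits, with 12.7, 12.1 and 8.53 against 13.97, 5.63 and 15.7 CPM. Both had MycKO libraries on either side of the WT libraries. MycKO library 10 held the lowest value of each. Without that library 22 members were lower and 4 higher (median -0.12), and after correction for transcript GC content and length 22 were lower and 1 higher (median -0.12). Scaling by library totals, which shifted the median of all genes by -0.095 in this comparison, gave 44 lower and 0 higher (median -0.31).

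**Figure D2:**
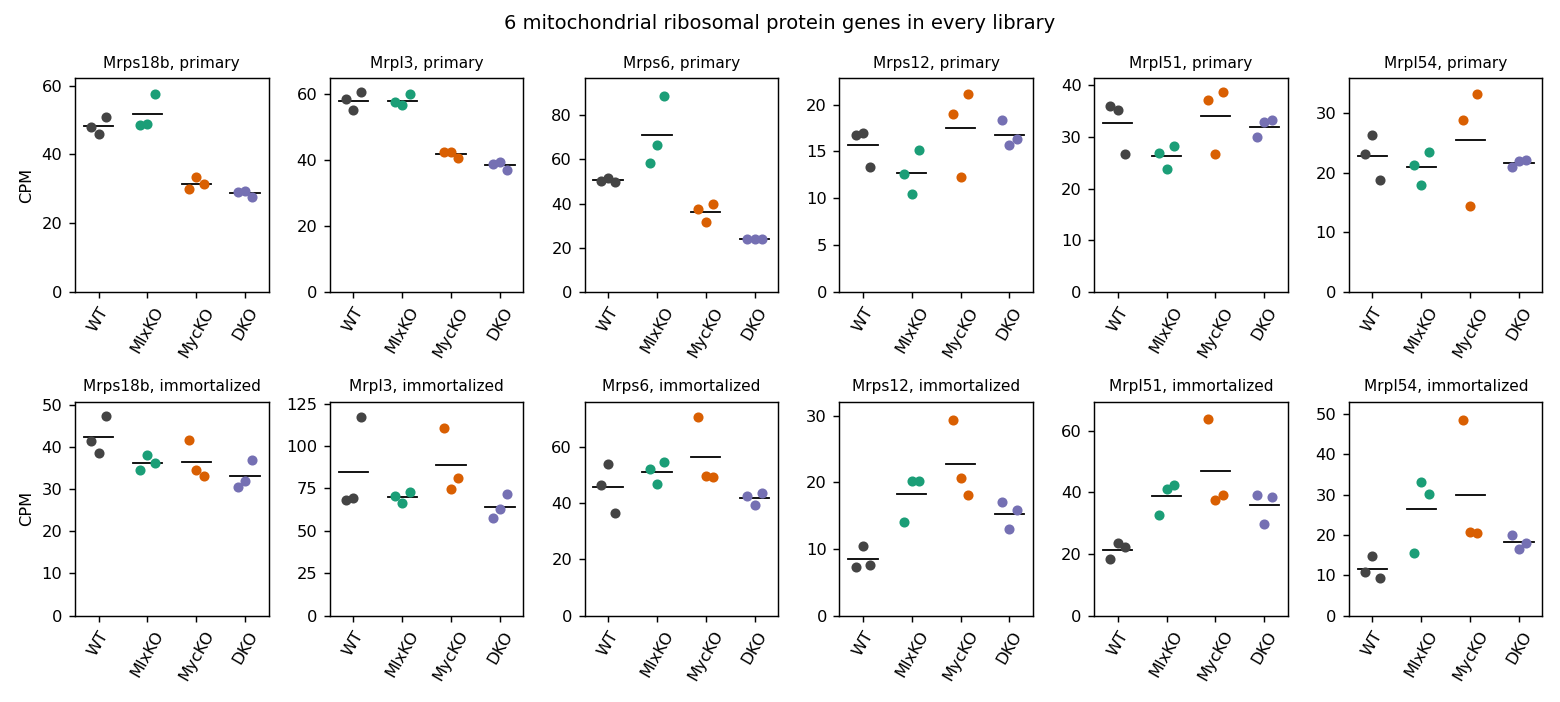
CPM of 6 members in each library, primary cells above and immortalized cells below; points are libraries (3 per genotype), lines are means, and each axis starts at 0. Mrps18b and Mrpl3 are lower in all primary MycKO and DKO libraries than in WT libraries, Mrps6 is lowest in primary DKO libraries, and Mrps12 and Mrpl51 are higher in all immortalized knockout libraries than in WT libraries.

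In primary DKO cells, in which both genes were excised, 42 members (53.8%) were lower and 0 higher than in WT cells, where 25.5% of all genes were lower and 24% higher. The median log2 fold change was -0.28, against 0.00 over all genes. No library overlapped for 50 members that were lower and 1 that was higher (30.8% and 30.0% of all genes). Mrps6, homolog of bacterial S6, which sits on the platform of the small subunit beside S18, had 50.2, 51.6 and 49.8 CPM in WT and 23.9, 23.98 and 24.1 CPM in DKO libraries, the largest fall of a member, with a log2 fold change of -1.04 ± 0.12 (SE, adjusted p = 2.14e-06). The DKO libraries were close to each other and all below the WT libraries. Mrpl1 had 8.94, 9.56 and 8.18 CPM in DKO libraries, a log2 fold change of -0.88 ± 0.15 (SE, adjusted p = 1.62e-04). Mrpl47, homolog of bacterial L29 at the tunnel exit, had 17.9, 15.1 and 16.6 CPM in WT and 9.71, 7.82 and 9.68 in DKO libraries, a log2 fold change of -0.80 ± 0.12 (SE, adjusted p = 2.61e-05). For both genes all DKO libraries lay below all WT libraries.

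Lower in DKO cells were also Mrps27 (log2 fold change -0.76), Mrps18b (-0.73), Mrpl12 (-0.67), Mrpl50 (-0.64), Mrps35 (-0.61) and Mrpl3 (-0.58), and the smallest change that passed the test was that of Mrpl33 (-0.22 ± 0.08 SE, adjusted p = 0.0271). Mrps6 is also the only member whose change in DKO cells passed a threshold of 1 on the log2 scale. The comparisons of MycKO and of DKO cells share the WT libraries, so their lists are not independent. Leaving out single libraries gave 34 to 51 called members, and 32 were lower and 1 higher after correction for GC content and length (median -0.20).

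The direct comparison of DKO with MycKO cells, which is Mlx loss where Myc is absent, called 3 members as lower, Mrps6, Mrps9 and Mrpl50, and 0 as higher, where 11% of all genes were lower and 10.6% higher. The median over the members was -0.11 and that over all genes -0.01. The groups were apart for 11 members that were lower and 0 that were higher (18.9% and 18% of all genes). Mrps6 had 37.8, 31.5 and 39.95 CPM in MycKO libraries, all above the DKO values given above, and a log2 fold change of -0.57 ± 0.12 (SE, adjusted p = 0.00204). Mrpl50 had 22.2, 20.5 and 20.3 CPM in MycKO and 18.3, 14.7 and 18.5 CPM in DKO libraries (-0.28 ± 0.10 SE, adjusted p = 0.0457). Mrps9, homolog of bacterial S9, had 17.6, 20.02 and 18.5 and 13.8, 17.6 and 14.2 CPM (-0.29 ± 0.10 SE, adjusted p = 0.0498). The groups of Mrpl50 were apart, and those of Mrps9 met at their edges. The count rose to 15 without MycKO library 10 and fell to 1 without some of the other libraries.

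Mlx loss alone left the members close to WT in primary cells. In MlxKO cells 0 members were lower and 1 was higher, Mrps6, where 5.14% of all genes were lower and 3.75% higher, and the median of the members was -0.02 against 0.00 over all genes. At an unadjusted p under 0.05, 3 members differed, and edgeR and DESeq2 also called 1 member each. Libraries did not overlap for 4 members that were lower and 3 that were higher (14.4% and 14% of all genes). Mrps6 had 58.3, 66.4 and 88.9 CPM in MlxKO libraries, all above the WT libraries, and a log2 fold change of 0.46 ± 0.12 (SE, adjusted p = 0.0207). The size of the rise depended on MlxKO library 7, without which it was 0.30 (adjusted p = 0.0891), and the call was also lost without WT library 1 or 2.

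Mrps6 thus had a higher level in MlxKO, a lower level in MycKO (log2 fold change -0.47 ± 0.12 SE, adjusted p = 0.00425) and the lowest level in DKO cells. Its Myc-by-Mlx interaction, the effect of Mlx loss without Myc minus its effect with Myc, was -1.04 ± 0.17 (SE, adjusted p = 4.08e-04) on the log2 scale. This was the only interaction called among the members in primary cells, where 6.07% of all genes had a negative and 7.47% a positive one, and the median over the members was -0.09 against -0.01 over all genes. Mrps6 lies on chromosome 16 from 91854965 to 91909592 (plus strand) and is overlapped by exons of same-strand genes, Slc5a3 among them, over 22.2% of its exon length. Slc5a3 is the sodium/myo-inositol cotransporter. Of the 50-base stretches of its annotated transcripts, 50.1% also occur on the same strand in transcripts of other genes, 35.9% in those of Slc5a3, so its reads may have been divided by the counting. Slc5a3 itself had 38.04 to 44.4 CPM in WT and 52.1 to 91.8 CPM in MlxKO libraries, against 23.5 to 36.1 CPM where Myc and 15.6 to 21.6 CPM where both were lost. The order of the group means was the same for both genes, and which of them carried the difference was not tested. The 130 bases before the start of Mrps6 (chr16:91854835-91854964, plus strand, GRCm39) are printed because this gene had the largest interaction, and no motif named above lies in them.
Mrps6: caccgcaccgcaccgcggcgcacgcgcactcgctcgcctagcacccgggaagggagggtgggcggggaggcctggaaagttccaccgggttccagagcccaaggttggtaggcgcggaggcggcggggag

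Other measures also differed between the genotypes of primary cells, not always in the way the members did. All 12 proliferation genes of a list with Mki67, Top2a and the Mcm helicase subunits were lower in MycKO and in DKO cells. In MlxKO cells 11 of the 12 were lower and 0 higher, where 0 members were lower. Their summed level was 1412 to 1487 CPM in WT, 1148 to 1191 in MlxKO, 820 to 964 in MycKO and 649 to 682 in DKO libraries. All 10 macrophage markers were also lower in MycKO and DKO cells, with sums of 309 to 607 CPM in WT, 337 to 417 in MlxKO, 53.0 to 79.5 in MycKO and 105 to 243 in DKO libraries, and no marker of the list was called in MlxKO cells. Of the 10 fibroblast markers 8 were higher and 1 lower in MycKO and in DKO cells, with sums of 42753 to 46398 CPM in WT, 43844 to 48370 in MlxKO, 55214 to 57558 in MycKO and 57732 to 58686 in DKO libraries. The part of proliferation, of macrophage RNA and of fibroblast RNA in the result was not tested. Of 5 markers each of other cell types, 2 endothelial, 2 epithelial, 1 skeletal muscle and 5 neural genes passed the filter in primary cells. Both epithelial markers were lower in all 3 knockouts. In each knockout 1 endothelial marker was lower, and in DKO cells 1 was higher. The muscle marker was lower in MycKO and MlxKO cells and not called in DKO cells. Of the neural markers 0 were lower and 3 higher in MycKO, 1 lower and 2 higher in MlxKO and 1 lower and 1 higher in DKO cells. In immortalized libraries the macrophage sum was at most 5.80 CPM. The proliferation sum there was 2851 to 3614 CPM, with 0 of its 12 genes called in MycKO or DKO cells and 2 lower and 1 higher in MlxKO cells. The fibroblast sum there was 25576 to 33710 CPM in WT, 18480 to 22714 in MlxKO, 18011 to 24224 in MycKO and 26722 to 34569 in DKO libraries. Of the 10 fibroblast markers 3 were lower and 2 higher in immortalized MycKO cells, and 1 lower and 2 higher in MlxKO cells. The part of these sums in the immortalized results was not tested either.

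**Figure D3:**
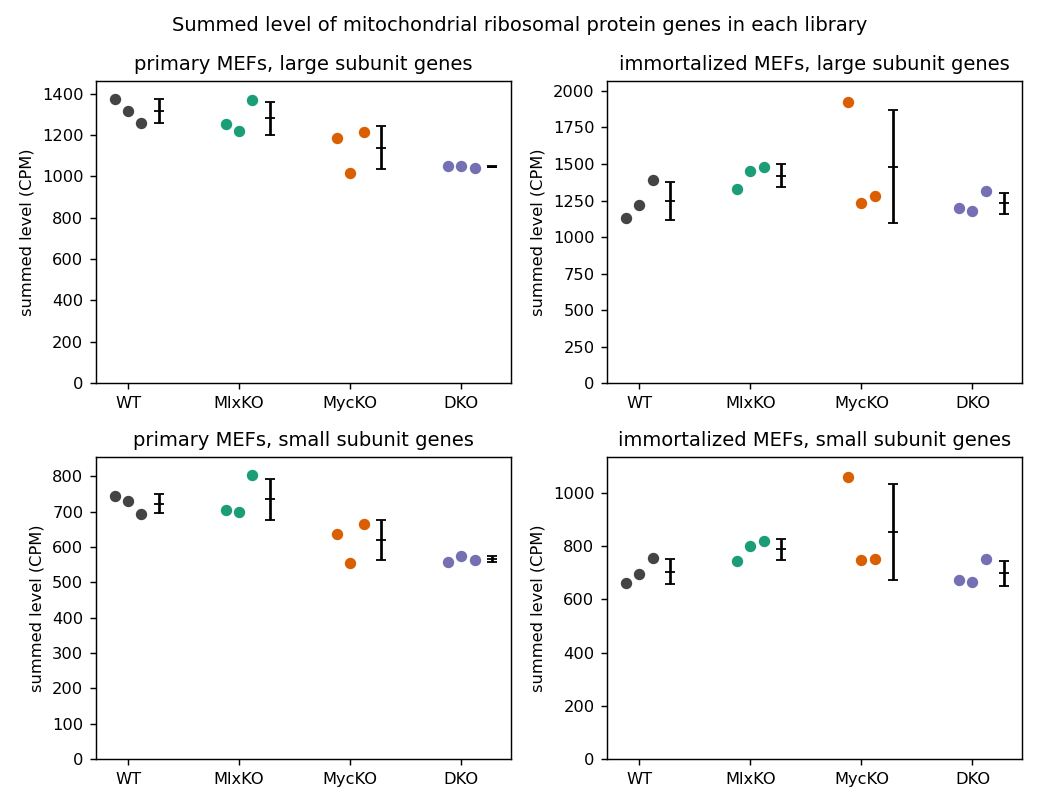
Summed CPM of the 49 large subunit and the 29 small subunit genes in each library, with the mean and SD of 3 libraries beside the points and axes that start at 0. In primary cells the DKO libraries (large subunit mean 1047 CPM, small 565) lie below all WT libraries (means 1315 and 723), and in immortalized cells MycKO library 9 reaches 1927 CPM for the large subunit.

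Summed over the family, the large subunit genes had 1315 ± 58.4 CPM (SD, n = 3) in primary WT and 1281 ± 79.1 CPM in MlxKO cells, with lower sums in MycKO (1138 ± 105 CPM) and in DKO cells (1047 ± 4.34 CPM). The small subunit genes had 723 ± 26.9, 736 ± 58.1, 619 ± 56.5 and 565 ± 8.45 CPM in the same order. All MycKO and DKO libraries were below all WT libraries for both subunits. The ratio of the sums stayed between 1.74 and 1.85 in the means of the primary groups and between 1.73 and 1.80 in those of the immortalized groups. In primary MycKO cells 18 large (36.7%) and 7 small (24.1%) subunit members were called, all as lower. In DKO cells 27 (55.1%) and 15 (51.7%) were, all as lower. Of all genes 21.9% were lower in MycKO and 25.5% in DKO cells. The median fold change of the large minus that of the small subunit was -0.03 in primary MycKO, -0.02 in MlxKO and 0.02 in DKO cells. In immortalized cells it was -0.04 in MycKO, 0.04 in DKO and 0.16 in MlxKO cells, and 0.13 for DKO against MycKO cells. Within groups, the median log2 level of large minus that of small members varied between single libraries with an SD of 0.09 in each table. That SD is of levels in single libraries and does not measure the error of a difference of fold changes. No test of the difference was made. Mrps18a and Mrps30 have small subunit names but sit in the large subunit of mammalian mitochondrial ribosomes, and placing them there left these differences in the same direction.

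In immortalized MycKO cells 0 members were lower and 24 (30.8%) higher, where 23.5% of all 12880 genes tested were lower and 24.4% higher, and the median of the members was 0.29 against 0.00 over all genes. No library overlapped for 1 member that was lower and 24 that were higher (25.1% and 26% of all genes). The largest rises were those of Mrps12, Mrpl14 and Mrpl54. Mrps12, on chromosome 7 from 28439066 to 28441680 (minus strand), had 7.26, 10.4 and 7.61 CPM in WT and 29.4, 20.7 and 18.2 CPM in MycKO libraries, a log2 fold change of 1.32 ± 0.21 (SE, adjusted p = 3.33e-04), with all MycKO libraries above all WT libraries. Mrpl14 had 6.03, 11.9 and 5.96 against 41.8, 11.5 and 14.5 CPM, a log2 fold change of 1.24 ± 0.41 (SE, adjusted p = 0.0250). Its groups overlapped, its highest value by far was in library 9, and without library 9 the change was 0.70 (adjusted p = 0.0939). Its call was lost in 6 of 26 alternatives, that one among them. Mrpl54, a protein of the mitochondrial large subunit, had 10.8, 14.7 and 9.31 against 48.5, 20.7 and 20.4 CPM, a log2 fold change of 1.20 ± 0.33 (SE, adjusted p = 0.0105), which was 0.80 (adjusted p = 0.0396) without library 9. It was not called after correction for GC content and length (0.84, adjusted p = 0.0604). Exons of Mrpl54 overlap those of Matk on the opposite strand over 94.4% of their length, and whether the counting used strand is not given in the sources used here.

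MycKO library 9 carried part of the rise. Without it 6 members were lower and 17 higher, with a median of 0.10, and without it and WT library 4 together, an alternative chosen after seeing the data, 6 were lower and 22 higher (median 0.11). The shares of all genes above are those of the main fit, and shares under the alternatives are not given. The deviation of library 9 from the other MycKO libraries followed transcript length across all genes (Spearman rho -0.52, a description, since genes of a library share its depth and composition). Fold changes in immortalized MycKO cells followed GC content, with rho 0.40 over all genes and 0.43 over the members. The members called had a median GC content of 53.9% and those not called 48.4%. After correction for GC content and length 3 members were lower and 19 higher, with a median of 0.14. Mrps12 kept its call without library 9 (log2 fold change 1.13, adjusted p = 0.00157), after the correction (0.80, adjusted p = 1.76e-04) and with both changes to the libraries (1.07, adjusted p = 6.10e-04). The summed large subunit genes had 1247 ± 132 CPM (SD, n = 3) in WT and 1482 ± 387 in MycKO cells, and the small subunit genes 705 ± 48.1 and 853 ± 181. Both sums differed between the groups by less than the SD of the MycKO libraries.

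**Figure D4:**
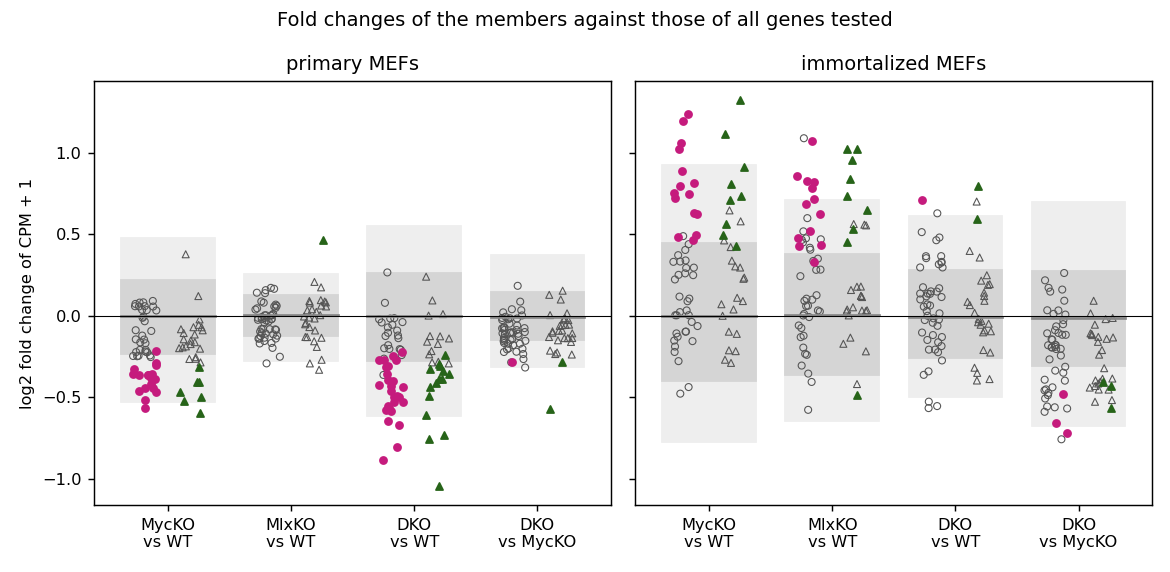
Log2 fold changes of CPM + 1 for the 78 members, with circles for large and triangles for small subunit genes, filled where the limma adjusted p was under 0.05. Behind them the dark band holds the middle 50% and the light band the middle 80% of all genes tested, with a line at their median. Members lie mostly below 0 in primary MycKO and DKO cells and mostly above 0 in immortalized MycKO and MlxKO cells, and most of them lie within the light band.

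Mlx loss in immortalized cells was compared without the use of MycKO library 9 in the fold changes. That library still enters the p-values through the spread shared by the 4 groups of the fit. In MlxKO cells 1 member was lower, Mrps14, and 21 were higher, where 19.9% of all genes were lower and 19.1% higher, with a median of 0.18 against 0.01 over all genes. The groups were apart for 6 members that were lower and 32 that were higher (25.2% and 23.9% of all genes). Mrpl54 had 15.6, 33.1 and 30.3 CPM in MlxKO libraries, a log2 fold change of 1.07 ± 0.33 (SE, adjusted p = 0.0230). Mrps21, homolog of bacterial S21, had 5.68, 12.9 and 5.84 CPM in WT and 15.8, 16.4 and 17.3 CPM in MlxKO libraries (1.02 ± 0.25 SE, adjusted p = 0.00845), and Mrps12 had 14.1, 20.2 and 20.3 CPM in MlxKO libraries (1.02 ± 0.21 SE, adjusted p = 0.00308). For each of the 3 genes all MlxKO libraries lay above all WT libraries. Mrps14, homolog of bacterial S14 in the head of the small subunit, had 43.7, 36.2 and 42.4 CPM in WT and 26.3, 28.3 and 32.05 CPM in MlxKO libraries (-0.48 ± 0.17 SE, adjusted p = 0.0447). This difference was not called after correction for GC content and length (-0.02, adjusted p = 0.942), by edgeR (-0.47, adjusted p = 0.0506), with library totals, with no filter on low values or without any of 9 single libraries.

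The MlxKO count also moved with GC content and with single libraries. Fold changes in immortalized MlxKO cells followed GC content with rho 0.60 over all genes and 0.50 over the members, and the called members had a median GC content of 54.8% against 48.6% for those not called. After correction for GC content and length 3 members were lower and 14 higher (median 0.15). The count of called members was 9 without MlxKO library 6 or WT library 2. Without MycKO library 9, 2 members were lower and 30 higher. Without it and WT library 4, an alternative chosen after seeing the data, 1 was lower and 33 were higher. Scaling by library totals, which shifted the median of all genes by 0.15 in this comparison, gave 0 lower and 33 higher. Mrps12 and Mrps21 were called as higher under each alternative run. Mrpl54 was not called after the correction (0.63, adjusted p = 0.184), nor without MlxKO library 6 or 7 or WT library 2.

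In immortalized DKO cells the members were close to WT. None was lower and 3 were higher, Mrps12, Mrpl51 and Mrps11, where 8.51% of all genes were lower and 10.4% higher, and the median was 0.06 against -0.01 over all genes. Libraries did not overlap for 6 members that were lower and 12 that were higher (18% and 19.2% of all genes). Without MycKO library 9, which enters only through the shared spread, 2 members were lower and 5 higher. Mrps12 had 17.1, 12.95 and 15.8 CPM in DKO libraries, a log2 fold change of 0.79 ± 0.21 (SE, adjusted p = 0.0211). Mrpl51, a large subunit protein, had 18.3, 23.5 and 22.2 CPM in WT and 39.01, 29.7 and 38.4 CPM in DKO libraries (0.71 ± 0.20 SE, adjusted p = 0.0270). Mrps11, homolog of bacterial S11 on the platform, had 8.73, 10.99 and 10.8 against 17.7, 12.7 and 17.5 CPM (0.59 ± 0.18 SE, adjusted p = 0.0376). For all 3 genes the DKO libraries were above the WT libraries, and all 3 calls were lost without WT library 2, DKO library 13 or DKO library 15. The call of Mrps11 was also lost without MlxKO library 7 or MycKO library 10 or 11 and with no filter on low values. In a limma fit of only the groups compared, the calls of Mrps11 (adjusted p = 0.0980) and of Mrps12 (adjusted p = 0.0538) were lost.

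Against MycKO cells, 6 members were lower in immortalized DKO cells and 0 higher, where 14.6% of all genes were lower and 14.8% higher, with a median of -0.20 against -0.01 over all genes. They were Mrpl49 (log2 fold change -0.72), Mrpl28 (-0.66), Mrps5 (-0.57), Mrpl9 (-0.48), Mrps27 (-0.43) and Mrps25 (-0.41). No library overlapped for 20 members that were lower and 0 that were higher, where 24.8% of all genes did so in each direction. Without MycKO library 9 the count was 2 and the median -0.07, and without it and WT library 4 it was 7 lower and 4 higher.

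The effect of Mlx loss differed with the presence of Myc for 29 members in immortalized cells, all 29 with a negative interaction, where 23.8% of all genes had a negative and 23.7% a positive one. The median interaction was -0.46 on the log2 scale, against -0.01 over all genes. It was largest for Mrpl14 (-1.85 ± 0.58 SE, adjusted p = 0.0198), Mrpl54 (-1.64 ± 0.47 SE, adjusted p = 0.0124), Mrps12 (-1.55 ± 0.29 SE, adjusted p = 0.00127) and Mrps26 (-1.47 ± 0.32 SE, adjusted p = 0.00280). The call of Mrpl54 was lost after correction for GC content and length (-1.10, adjusted p = 0.0838) and that of Mrpl14 without DKO library 14 (-1.65, adjusted p = 0.0536). Mrps26, a protein found only in mitochondrial ribosomes, had 11.2, 13.9 and 11.4 CPM in WT, 16.3, 31.7 and 28.2 in MlxKO, 26.5, 22.4 and 22.7 in MycKO and 21.1, 14.2 and 14.5 in DKO libraries. All of its libraries of the knockouts were above all WT libraries, and the DKO libraries were below all MycKO libraries. Without MycKO library 9, 28 members had a negative and 3 a positive interaction (median -0.21), and after correction for GC content and length 21 had a negative and 3 a positive one (median -0.36).

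**Figure D5:**
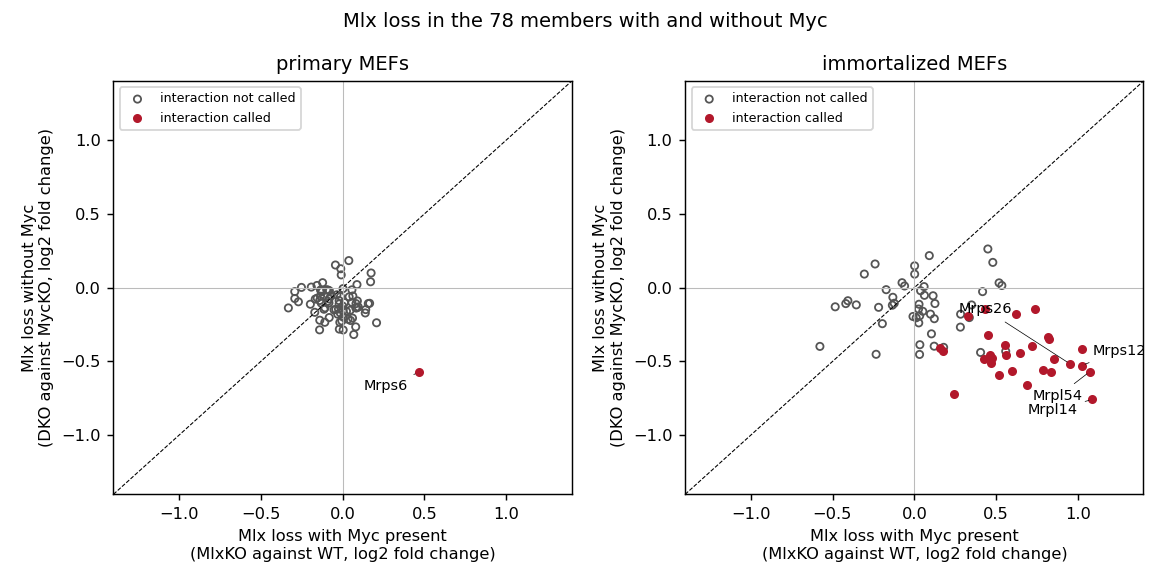
Each point is a member, with the log2 fold change of Mlx loss where Myc was present (MlxKO against WT) on the horizontal and where Myc was absent (DKO against MycKO) on the vertical axis, and filled points where the interaction was called. On the dashed line both are equal. In primary cells Mrps6 is the 1 filled point, and in immortalized cells the 29 filled points lie to the lower right of the line.

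The 3 homologs of bacterial S18 did not move alike. Mrps18b had 41.4, 38.6 and 47.4 CPM in immortalized WT and 41.7, 34.4 and 33.2 CPM in MycKO libraries, and no comparison called it there. Mrps18a had 22.2, 23.2 and 21.97 CPM in primary WT and 18.04, 17.4 and 18.8 CPM in DKO libraries (-0.30 ± 0.11 SE, adjusted p = 0.0315), and 18.3, 20.7 and 16.7 against 53.98, 25.97 and 25.9 CPM in immortalized WT and MycKO libraries (0.81 ± 0.23 SE, adjusted p = 0.0118). It fell in primary DKO and rose in immortalized MycKO cells, in each case without overlap of the libraries. The first call was lost without DKO library 13 or 14 or WT library 1 or 2, and the second after correction for GC content and length. Mrps18c was called in no comparison, with 12.6 to 17.2 CPM in primary and 12.6 to 13.3 CPM in immortalized WT libraries. Its exons overlap those of Abraxas1 on the opposite strand over 78.3% of their length.

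Mrpl12 rose in immortalized MycKO cells, from 27.6, 29.5 and 42.5 CPM in WT to 69.4, 42.5 and 44.6 CPM (0.63 ± 0.21 SE, adjusted p = 0.0255). This call was lost in 6 of 26 alternatives, among them without library 9 and after correction for GC content and length. Mrpl11, at the base of the same stalk, was called for the interaction in immortalized cells alone (-0.95 ± 0.31 SE, adjusted p = 0.0245), and that call was lost without any of 4 single libraries. Mrpl3 was called in no immortalized comparison, with 68.2, 69.4 and 117 CPM in WT and 110.5, 74.6 and 80.9 CPM in MycKO libraries, where library 4 and library 9 held the high values. Mrpl4, a second protein of the large subunit core, was lower in primary MycKO (-0.30 ± 0.08 SE, adjusted p = 0.00408) and DKO cells (-0.31 ± 0.08 SE, adjusted p = 0.00240) and higher in immortalized MlxKO cells (0.48 ± 0.13 SE, adjusted p = 0.0146). The last of these changed sign to -0.05 after correction for GC content and length.

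Mrpl58, a homolog of peptide release factors that became part of the large subunit, had 20.04, 23.2 and 17.9 CPM in primary WT and 15.9, 16.1 and 13.5 CPM in DKO libraries (-0.40 ± 0.12 SE, adjusted p = 0.00893), with all DKO libraries below all WT libraries. The call was lost without DKO library 15 or WT library 2. Mrps30 was lower in both primary MycKO (-0.41 ± 0.09 SE, adjusted p = 0.00184) and DKO cells (-0.50 ± 0.09 SE, adjusted p = 2.72e-04). Mrps36, which carries the name of the family but is known as a subunit of the oxoglutarate dehydrogenase complex, was lower in primary DKO cells (-0.33 ± 0.12 SE, adjusted p = 0.0379), a call that was lost after correction for GC content and length and without any of 5 single libraries. Mrpl41, of the large subunit, was not called in primary cells and had 6.50, 8.38 and 6.63 CPM in immortalized WT and 27.7, 12.03 and 11.1 CPM in MycKO libraries (1.02 ± 0.28 SE, adjusted p = 0.0105), the highest again in library 9. The call of Mrpl41 was kept without library 9 (0.63, adjusted p = 0.0225) and lost after correction for GC content and length (0.61, adjusted p = 0.0504).

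Among members mutated in inherited disorders of mitochondrial translation, Mrps2 (-0.31 ± 0.09 SE, adjusted p = 0.00830), Mrps7 (-0.41 ± 0.12 SE, adjusted p = 0.0108) and Mrps22 (-0.44 ± 0.11 SE, adjusted p = 0.00420) were lower in primary DKO cells. The calls of Mrps2 and Mrps22 were lost after correction for GC content and length, and that of Mrps7 without WT library 1. Mrps7 was higher in immortalized MycKO (0.56 ± 0.19 SE, adjusted p = 0.0265) and MlxKO cells (0.65 ± 0.19 SE, adjusted p = 0.0174), and neither call held after the correction. Mrps16 and Mrpl44, which has a domain related to ribonuclease III, were called in no comparison of either table. Mrps16 had 20.8, 17.5 and 20.7 CPM in primary WT and 16.8, 16.9 and 18.8 CPM in DKO libraries, and Mrpl44 had 12.6, 15.8 and 13.1 and 12.9, 12.8 and 11.7 CPM. Both pairs of groups overlapped. Mrps34 was called only in immortalized MlxKO cells (0.53 ± 0.19 SE, adjusted p = 0.0400), with a sign that turned (-0.06) after correction for GC content and length, and 70.5% of its exon length is overlapped by genes of the opposite strand. Mrps15, of the small subunit, rose in immortalized MycKO cells (0.43 ± 0.15 SE, adjusted p = 0.0294), and in primary cells no comparison called it. The call of Mrps15 was lost in 6 of 26 alternatives, that without library 9 among them.

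Members called in no comparison numbered 35 in primary and 43 in immortalized cells. The share of all genes called in no comparison is not given, so these counts describe no trait of the family. In primary cells they included Mrpl2, Mrpl20, Mrpl22, Mrpl23, Mrpl24, Mrpl27, Mrpl34, Mrpl38, Mrpl48, Mrpl51, Mrpl52, Mrpl54, Mrpl55, Mrpl57, Mrps5, Mrps12, Mrps17, Mrps21, Mrps26 and Mrps31. In immortalized cells they included Mrpl1, Mrpl10, Mrpl13, Mrpl15, Mrpl16, Mrpl17, Mrpl18, Mrpl19, Mrpl30, Mrpl32, Mrpl35, Mrpl42, Mrpl45, Mrpl47, Mrpl50, Mrps2, Mrps6, Mrps18b, Mrps22 and Mrps35. Mrpl23 shares 76.4% of its 50-base stretches with the pseudogene Mrpl23-ps1, and the highest member per length, Mrpl33, shares 18.7% with a long noncoding RNA, so that the levels of both depend on how reads were assigned. Primary and immortalized tables were normalized separately and were not tested against each other.

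Members were also divided by the motifs in their windows. None of the 5 members with a CACGTG E-box was called in a primary comparison, and their median in primary MycKO cells was -0.22 against -0.20 for the other 73. In immortalized MycKO cells the medians were 0.65 and 0.26, with 2 of 5 and 22 of 73 called as higher. The 24 members with an ETS match had a median of -0.15 in primary MycKO cells, with 3 lower, and the other 54 a median of -0.23, with 22 lower. In immortalized MlxKO cells the medians were 0.47, with 11 higher, and 0.12, with 10 higher and 1 lower. Whether these divisions differ was not tested.

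Genes that act with the mitochondrial ribosome were read from lists chosen by function. Beside all list counts below stand the shares of all genes tested. In primary cells 21.9% were lower and 20.4% higher in MycKO and 25.5% and 24% in DKO cells. In immortalized cells the shares were 23.5% and 24.4% in MycKO, 19.9% and 19.1% in MlxKO and 8.51% and 10.4% in DKO cells. Of 5 subunits with other names, Ptcd3 (log2 fold change -0.75, adjusted p = 1.38e-06), Chchd1 (-0.50, adjusted p = 0.00645) and Dap3 (-0.34, adjusted p = 0.00852) were lower in primary MycKO cells and 0 higher, and 3 were lower in DKO cells. In immortalized MycKO cells 1 was lower and 3 higher, Gadd45gip1 among them (1.11, adjusted p = 3.09e-04). Of 14 translation factors, 5 were lower and 1 higher in primary MycKO and 7 lower in DKO cells, with Lrpprc, which stabilizes mitochondrial messenger RNA, at -0.71, adjusted p = 2.03e-06 in DKO cells. In immortalized cells 4 were lower and 3 higher in MycKO and 2 lower and 2 higher in MlxKO cells, where the elongation factor Tufm stood at 0.61, adjusted p = 0.00202. Of 27 assembly and ribosomal RNA modification factors, 6 were lower and 1 higher in primary MycKO cells. In immortalized MycKO cells 3 were lower and 5 higher. These counts of assembly and modification factors were all near or below the shares of all genes.

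Of 6 genes for transcription of the mitochondrial genome, 4 were lower and 0 higher in primary MycKO cells, and 5 were lower and 0 higher in primary DKO cells. Tfam, which packages mitochondrial DNA and opens its promoters, was at -0.43, adjusted p = 5.11e-04 in MycKO and -0.43, adjusted p = 3.73e-04 in DKO cells. The 13 protein-coding genes of the mitochondrial genome, the messages that mitochondrial ribosomes read, had 1 gene lower in primary MycKO and 9 lower in DKO cells, with medians of -0.20 and -0.59. In immortalized cells 13 were lower in MycKO (median -1.62) and 12 in MlxKO cells (median -1.31), the comparisons in which mitochondrial ribosomal protein genes were higher, and 2 in DKO cells. Their interaction was called as positive for 12 of 13 genes (median 2.32), where 23.7% of all genes had a positive one. Their summed level was 30478 to 34235 CPM in immortalized WT and 8616 to 12635 CPM in MycKO libraries.

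Beside these, 79 nuclear genes of the respiratory chain had 17 lower and 3 higher in primary MycKO cells (median -0.03) and 30 lower and 0 higher in DKO cells (median -0.14). In immortalized cells 3 were lower and 24 higher in MycKO (median 0.27, of 78 tested) and 3 lower and 17 higher in MlxKO cells (median 0.19). Of 81 cytosolic ribosomal protein genes, 68 were lower and 1 higher in primary MycKO cells (median -0.47) and 76 lower and 0 higher in DKO cells (median -0.63). In immortalized cells 10 were lower and 8 higher in MycKO, 2 lower and 9 higher in MlxKO and 22 lower and 0 higher in DKO cells. The differences between these lists and the mitochondrial ribosomal protein genes were not tested.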

How the data were processed

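The authors sequenced poly-A selected RNA in 24 libraries and mapped the reads to GRCm39 (mm39) with CLC Genomics Workbench, and they deposited 1 table of CPM values per cell type, a signal scaled between libraries, so that columns do not sum to the same total. The setting for strand in the counting is not given in the sources used here. In each deposited column every nonzero value was a whole multiple (tolerance 0.01 steps) of the value of 1 read, from which whole reads were recovered. All columns of values were used (0 left out).

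The main test was limma 3.58.1 (R 4.3.3) with a mean-variance trend on log2(CPM + 1), 1 fit of 4 groups per table, over genes that reached 1 CPM in 3 or more of 12 libraries, with Benjamini-Hochberg adjustment over all genes and a threshold of 0.05. A fold change on this scale understates that of low genes. The alternatives were edgeR 4.0.16 and DESeq2 1.42.0 on recovered reads, other scaling, pseudocount (0.1) and filters, correction for GC content and length, and leaving out libraries. Places, transcripts and promoter windows came from GENCODE vM39.

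The members, the lists of factors, respiratory chain and ribosomal genes and the markers of cell types and proliferation were chosen with earlier results of these data known. Named are the 3 called members with the largest rise and fall in each knockout against WT, up to 4 with the largest interactions, the highest and lowest per kilobase in WT, members with a known role or place, members called nowhere, and the members of small counts. Others given with a value were chosen after their values were seen.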

Additional observations from a re-analysis of the deposited data

Results flagged for a closer look

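In primary cells the effect of Mlx loss differed with the presence of Myc for 1 member, Mrps6, whose Myc-by-Mlx interaction passed the limma test at -1.04 on the log2 scale. Of all genes there, 6.07% had a negative and 7.47% a positive interaction. In immortalized cells the interaction passed the test for 29 members, all negative, where 23.8% of all genes had a negative and 23.7% a positive one. The largest values were those of Mrpl14 (-1.85), Mrpl54 (-1.64), Mrps12 (-1.55) and Mrps26 (-1.47). The median of the members was -0.46. Without MycKO library 9 it was -0.21, with 28 negative and 3 positive calls. The call of Mrpl54 was lost after correction for GC content and length (-1.10, limma adjusted p = 0.0838) and that of Mrpl14 without DKO library 14 (-1.65, limma adjusted p = 0.0536).

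The primary and immortalized tables were normalized separately, and the difference between them was not tested. For 4 members (Mrpl21, Mrpl37, Mrpl39 and Mrps18a) all MycKO libraries moved one way from all WT libraries in primary cells and the opposite way in immortalized cells. The same held for 3 members in MlxKO cells (Mrpl4, Mrps17 and Mrps18a) and for 4 members in DKO cells (Mrpl37, Mrpl39, Mrpl46 and Mrps18a). These were 5.13%, 3.85% and 5.13% of the members, where 6.31%, 7.77% and 5.93% of the 12402 genes tested in both tables moved in opposite ways. In DKO cells 6 members (7.69%, against 9.0% of all genes) were lower in all libraries of both tables. In MycKO cells 1 member was, Mrps30 (1.28%, against 8.14% of all genes).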

How the results depend on the processing

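No paired analysis was possible because the columns carry library numbers that the labels do not tie to replicate numbers. Leaving out 1 library at a time gave 20 to 31 called members for primary MycKO, 0 to 3 for MlxKO, 34 to 51 for DKO, 1 to 15 for DKO against MycKO and 1 to 3 for the interaction, and in immortalized cells 16 to 29, 9 to 32, 0 to 7, 2 to 13 and 24 to 33 in the same order. Library totals gave 44 in primary MycKO and 1 in DKO against MycKO cells. They moved the median of all genes by -0.095 in primary MycKO cells, by 0.15 in immortalized MlxKO cells and by -0.16 for the immortalized interaction. With no filter on low values the primary MlxKO count was 0 and that of DKO against MycKO 1. A fit of only the groups compared gave 1 for primary DKO against MycKO, and 15, 1 and 11 for immortalized MycKO, DKO and DKO against MycKO. DESeq2 gave 11 for the last. When calls had to exceed 1 on the log2 scale, the primary counts were 0 for MycKO, MlxKO and DKO against MycKO and 1 for DKO, and the immortalized counts 6, 3, 0 and 0, with 16 for the interaction. Correction for GC content and length gave 6 for primary DKO against MycKO, 3 for the primary interaction and 7 for immortalized DKO, and turned the sign of Mrpl4 (-0.0485) and Mrps34 (-0.0583) in immortalized MlxKO cells. In alternatives chosen after seeing the data, leaving out immortalized WT library 4 and MycKO library 9 gave 34 for MlxKO, 6 for DKO and 11 for DKO against MycKO, and with the correction 42, 9 and 16 and -0.17 for Mrps34. ETS matches before the start alone were in 17.9% of members. Over 50 pairs of a named gene and a comparison, 1086 values kept their direction and side of the threshold, 155 lost the call and 3 turned. The causes of these shifts were not tested. Counts under the alternatives stand without the shares of all genes called in the same fits. With 3 libraries per group and pooled embryos, small differences could not be resolved, and 3 reads set the floor.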
